A study of Mus musculus with 9 samples.

Results

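Aged long-term haematopoietic stem cells (LT-HSCs) kept with an inhibitor of RhoA were compared with young LT-HSCs by RNA sequencing, over every gene with at least 10 counts in 3 or more of the 6 libraries of these groups. By this rule 13902 of the 21939 genes in the deposited table were members, and 1 contrast was read across all of them. The cells came from the bone marrow of C57BL/6 mice and were sorted for Sca1+ and cKit+ and against lineage markers, CD34 and Flt3. The young group held 3 libraries from mice of 10 to 16 weeks without inhibitor. The treated group, called aged+Ri below, held 3 libraries from mice of more than 80 weeks with Rhosin, a small molecule that blocks the activation of RhoA, at 100 µM. Another group of 3 libraries from aged mice without inhibitor entered the same model and is given beside the results. Cells of all 3 groups spent 16 h at low oxygen in balanced salts and serum before RNA was taken, so no group shows freshly isolated cells. Aged+Ri and young cells differ in age and in treatment at once, and this contrast cannot tell the 2 apart. Y-linked transcripts, given below, also differ between these groups, so sex is in part a further difference. Replicates are labelled as biological, with no number of mice behind a library, so p-values measure only the spread between these libraries.

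LT-HSCs are the rare marrow cells that renew themselves for life and give rise to every blood lineage. With age they become more numerous, less able to rebuild blood and more inclined to platelet and myeloid output. RhoA is a small GTPase that, in its active form, drives actin filament assembly and actomyosin tension through kinases and formins. The series title places the work in the rejuvenation of aged stem cells through RhoA, so the comparison asks how far treated aged cells still stand from young ones.

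Library totals ran from 34357928 to 72502983 counts over the 9 libraries. Several features of the libraries run along the contrast. Young libraries detected 20600 ± 557 genes, aged libraries 16220 ± 1563 and aged+Ri libraries 15660 ± 618 (mean ± SD, n = 3, at least 1 count), and predicted genes without an assigned name took 4.33% ± 1.78, 1.58% ± 0.202 and 1.35% ± 0.068 of the counts. Each of these measures separated all young from all aged+Ri libraries, with p = 0.1 by a two-sided exact permutation test, the smallest p that 3 against 3 allows (adjusted p = 0.1). Y-linked Ddx3y had 2577 counts in young 2 and 6400 in young 3, and 0 or 1 in every other library. Eif2s3y, also Y-linked, had 3233 and 5948 counts in young 2 and young 3 and 0 or 1 elsewhere. Such transcripts come from male cells, so the groups also differ in part by sex. Young 1 carried 661083 counts of the immunoglobulin gene Iglc2. Of the sort markers, Kit was at 657, 707 and 260.1 normalised CPM (counts scaled to a common library size, by TMM) in young and at 85.8, 309.5 and 167.5 in aged+Ri libraries, and Flt3 was between 0.057 and 0.69 CPM in aged+Ri and between 1.10 and 21.5 in young libraries. The groups overlapped in Cd34, at 87.3, 103.2 and 7.84 CPM in young and 7.86, 32.65 and 25.66 in aged+Ri libraries. They also overlapped in Ly6a, which encodes Sca1, at 449, 649.7 and 706 CPM in young and 218.1, 514.5 and 375.2 in aged+Ri libraries. Batch 1 holds aged 1 and aged+Ri 1, and batch 2 holds young 2, aged 2, aged+Ri 2 and aged+Ri 3. Batch 3 holds young 3 and aged 3, and young 1 was sequenced in batches 1 and 3. Untreated aged libraries thus lie in all 3 batches, and no aged+Ri library lies in batch 3. The part of these features in the results was not tested, and values within batch 2 or against young 1 alone are given beside a part of the results.

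Across the 13902 genes, edgeR's quasi-likelihood test called 230 at an adjusted p under 0.05, or 1.65%. Of these, 139 were higher in aged+Ri (1.00% of genes tested) and 91 were lower (0.655%). These 2 shares are the background for the calls in every gene list below. Higher genes had log2 changes from 1.16 to 9.80 with a median of 2.43, and lower genes from -12.03 to -1.19 with a median of -2.75. The median over all genes was -0.23, and it was 0.02 over the 3634 genes with at least 50 CPM. Without adjustment, 3061 genes had a p under 0.05, of which 1235 were higher and 1826 lower, and the libraries of the groups did not overlap in 29.7% of genes. In all 230 called genes the libraries of the 2 groups did not overlap. Their direction within batch 2 and against young 1 alone was therefore fixed in advance, and its being kept is no test. The number called rests on single libraries: it fell to 8 without aged+Ri 3 and 20 without aged+Ri 1, was 95 without young 1 and 104, 102 and 145 without aged 1, aged 2 and aged 3, and rose to 549 without young 3. A model of only the 6 libraries compared called 54 genes, of which 46 were among the 230, and DESeq2 with its own filter, run on 21640 genes, called 2944, 830 higher and 2114 lower.

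**Figure D1:**
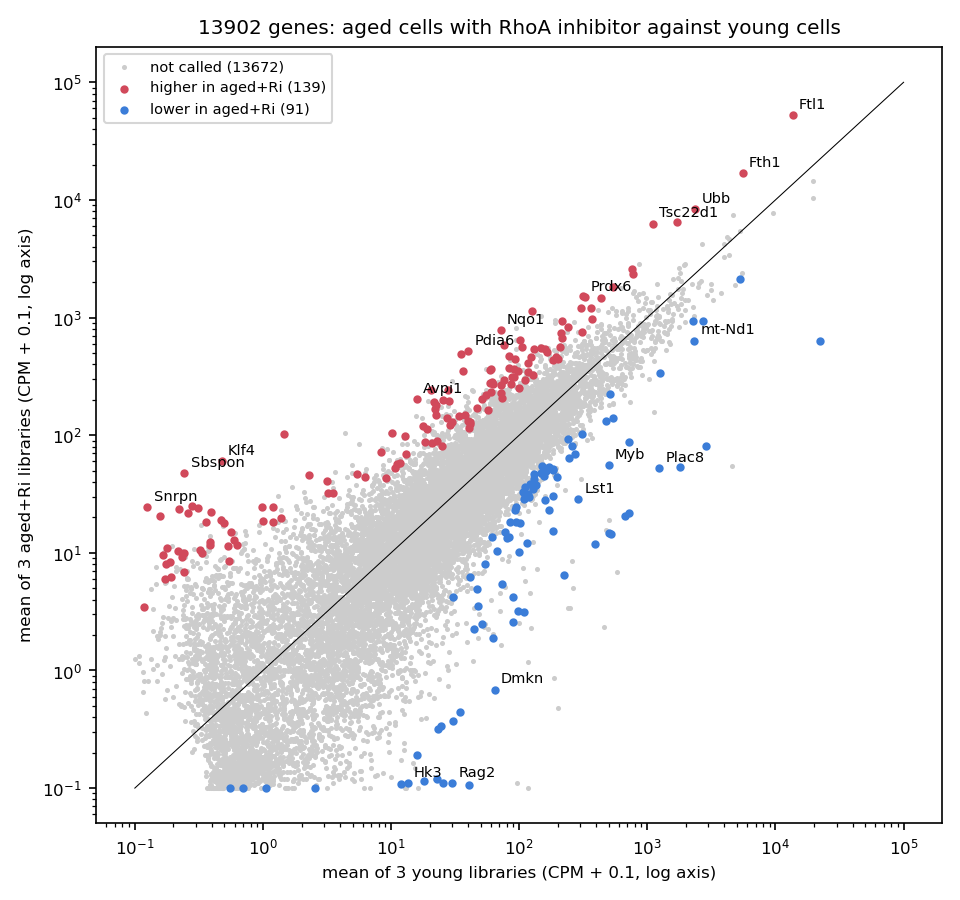
Mean CPM of the 3 young libraries (x axis) against the mean of the 3 aged+Ri libraries (y axis) for 13902 genes, both as CPM + 0.1 on log axes, with the line of equality. Red points are the 139 genes called higher in aged+Ri, blue points the 91 called lower, grey points the rest; the ferritin gene Ftl1 is the called gene of highest level, and Hk3 and Rag2 lie on the floor of the aged+Ri axis.

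Untreated aged cells lay between the other groups for most called genes. Their mean was between the young and aged+Ri means in 121 of the 139 higher and 88 of the 91 lower genes. It was nearer to young than to aged+Ri in 41 of the higher and 52 of the lower genes. These counts describe genes that the contrast itself picked, and the aged values share the young libraries with it, so they carry no test.

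The largest increases were in genes nearly silent in young cells, and they fell in 2 kinds by the untreated aged values. Of the genes in these 2 kinds, Snrpn, Sbspon, Spryd4, Gpx8 and Ifit3 passed the filter on low counts through the aged+Ri libraries alone, so they had to differ from young. The first kind was already high in aged cells without inhibitor. Snrpn, which is imprinted and encodes the splicing protein SmN (chromosome 7, 59982495 to 60140219, GRCm38), had 3 counts over the young libraries and 3258 over the aged+Ri libraries, 994 times as much per library size (95% counting interval 339.7 to 4821, edgeR adjusted p = 0.0032). It was at 14.6, 26.0 and 32.6 CPM in the aged+Ri libraries and at 13.4, 14.3 and 18.98 in aged libraries, so treated and untreated aged cells overlapped. Snurf has exons in common with it, so reads of the pair may be split. Sbspon, which encodes a secreted protein with a thrombospondin domain (chromosome 1, 15853862 to 15892722), was at 0.122, 0.110 and 0.197 CPM in young, 71.6, 91.2 and 55.3 in aged and 20.7, 51.9 and 69.2 in aged+Ri libraries. Every aged library, treated or not, was far above every young one, and the log2 change from young to aged+Ri was 8.35 ± 0.70 (SE; edgeR adjusted p = 0.00034). Ramp2, which escorts calcitonin-family receptors to the cell surface, was at 0.347, 0 and 0.281 CPM in young and 15.6, 19.8 and 36.1 in aged+Ri libraries, with 64.4 on average in aged ones (log2 change 6.79 ± 1.03, edgeR adjusted p = 0.018). Spryd4, which has a SPRY domain and exons in common with Gls2, was at 13.2, 17.0 and 30.7 CPM in aged+Ri and at most 0.084 in young libraries (log2 change 8.40 ± 1.01, edgeR adjusted p = 0.0037). Gpx8, a glutathione peroxidase-like enzyme, was at 2.57, 16.8 and 5.30 CPM in aged+Ri libraries, below its 13.6, 32.5 and 31.3 in aged libraries except in aged+Ri 2, and at most 0.122 in young ones.

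The second kind was low in untreated cells of both ages. Klf4, a zinc-finger transcription factor of the Krüppel-like family (chromosome 4, 55527143 to 55532466), was at 0.408, 0.330 and 0.393 CPM in young, 0, 0.151 and 0.737 in aged and 48.0, 63.9 and 68.5 in aged+Ri libraries. All 3 treated libraries stood above all 6 untreated ones, with a log2 change against young of 7.31 ± 1.27 (edgeR adjusted p = 0.022). Ifit3, an interferon-induced antiviral gene, was at 3.56 and 2.89 CPM in aged+Ri 1 and 2 and at 64.5 in aged+Ri 3, against at most 0.225 in young libraries. Most of its signal is in that 1 library, and its call was kept in 2 of the 9 fits that leave out 1 library.

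**Figure D2:**
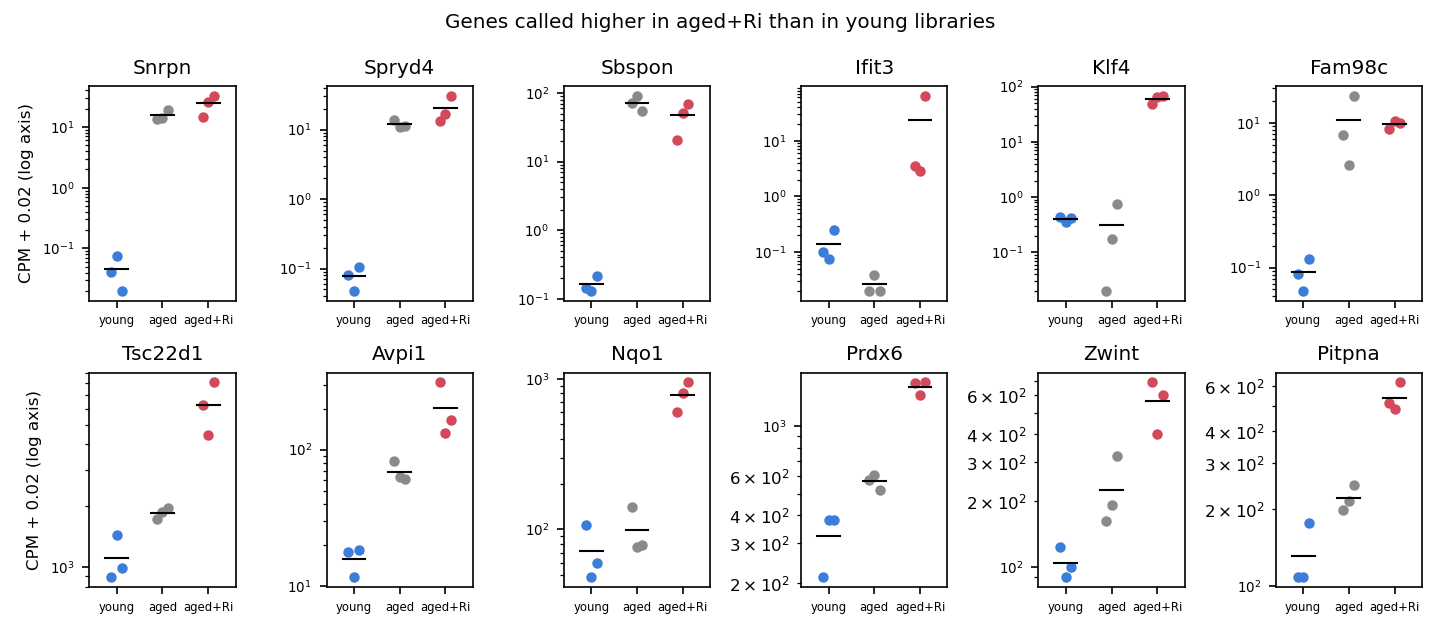
CPM + 0.02 (log axes, a scale for each gene) in each library of the young, aged and aged+Ri groups, replicates 1 to 3 from left to right, for 12 genes called higher in aged+Ri; black lines are group means. The upper row holds genes near 0 in young libraries, where Klf4 and Ifit3 are low in untreated aged libraries too, and the lower row holds genes above 5 CPM in both groups.

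Among genes with at least 5 CPM in both groups, the smallest p belonged to Tsc22d1, Avpi1, Nqo1 and Prdx6. Tsc22d1, a leucine-zipper regulator induced by TGF-beta, was at 888, 1440 and 992 CPM in young, 1730, 1861 and 1947 in aged and 6274, 4467 and 8081 in aged+Ri libraries. The groups stood in steps without overlap, and the log2 change from young to aged+Ri was 2.503 ± 0.29 (edgeR adjusted p = 0.0032). Avpi1, a small gene named for its induction by vasopressin, stood in the same order, at 17.8, 11.5 and 18.2, then 82.7, 62.7 and 60.8, then 311.8, 132.6 and 164.4 CPM (log2 change 3.68 ± 0.43, edgeR adjusted p = 0.0032). Zwint, a kinetochore protein, had a log2 change of 2.43 ± 0.35, from 104 ± 17 to 563 ± 146 CPM (n = 3 each, edgeR adjusted p = 0.014). Pitpna, a phosphatidylinositol transfer protein, rose by 2.05 ± 0.30 to 541 ± 69.9 CPM, and Rras, a Ras-family GTPase, by 1.94 ± 0.31 to 292 ± 21.5 (edgeR adjusted p = 0.015 and 0.022). Of the 81 called genes among the 241 considered by name, only Snrpn, Spryd4, Sbspon, Tsc22d1, Avpi1, Nqo1 and Prdx6 were called in all 9 fits that leave out 1 library, and every other called gene named here lost its call in at least 1 such fit. Most losses came without aged+Ri 3 (74 of 81) and without aged+Ri 1 (65). Among the genes described here, calls kept in at most 2 of the 9 fits were those of Ifit3, Ddb2, Manf, Dnajb9, Sdf2l1, Dnajb1, Sars, Eif4ebp1, Gstp1, Fth1, Bad, Procr, Msi2, Cbx3, Rag2, Ndufb5 and Atp5b, the last in 0. Exons of several named genes overlap another gene, which leaves their counts uncertain: Ramp2 (Vps25), Pdia6 (Atp6v1c2), Bad (Gpr137), Ndufb5 (Mrpl47), Rhoa (Tcta) and Cfl1 (Snx32).

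One list holds genes of published ageing signatures of HSCs, those reported higher with age. Of 46 tested members, 9 were called higher and 0 lower (1.00% and 0.655% of all genes), 33 had a positive and 13 a negative log2 change, the median log2 change was 0.76, against -0.23 for all genes, and the libraries did not overlap in 17 members higher and 2 lower (12.2% and 17.5% of all genes). The members called were Sbspon, Tsc22d1, Ramp2, Jam2, Cd9, Nrgn, Plscr2, Nupr1 and Wwtr1, of which Nrgn and Plscr2 are named to complete the count after their values were seen. Jam2, an endothelial and stem-cell adhesion molecule, was at 74.8, 67.1 and 39.8 CPM in young, 89.4, 152.5 and 106 in aged and 229.8, 359 and 513 in aged+Ri libraries, above both untreated groups (log2 change 2.60 ± 0.40, edgeR adjusted p = 0.018). Cd9, a tetraspanin of stem cells and platelets, was at 797, 745 and 749 CPM in young libraries, which lay close together, and 1665, 2538 and 3528 in aged+Ri libraries (log2 change 1.76 ± 0.29, edgeR adjusted p = 0.022). Untreated aged libraries were at 1422, 1842 and 1754 CPM, above young and overlapping aged+Ri. Wwtr1, which encodes the YAP relative TAZ, was at 13.7, 14.8 and 1.60 CPM in young and 150.9, 69.0 and 91.1 in aged+Ri libraries (log2 change 3.37 ± 0.69, edgeR adjusted p = 0.036). Vwf and Selp, a clotting factor and an adhesion receptor of platelet-biased stem cells, overlapped with young: Vwf was at 17.1, 64.9 and 27.7 CPM in aged+Ri and 16.2, 40.6 and 9.38 in young libraries, with an aged mean of 122 (edgeR adjusted p = 0.51). Without aged+Ri 3 the list held 2 calls, without aged 2 it held 5 and with only the 2 groups 4, and the median ranged from 0.68 to 1.22 over the 9 fits. With 10 counts required in both groups, which leaves out Sbspon, 8 of 45 were called higher and the median was 0.71.

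Genes of the endoplasmic reticulum (ER) stress response formed the list with the highest median. When proteins misfold in the ER, the sensors IRE1, PERK and ATF6 raise chaperones, folding enzymes and degradation factors, and IRE1 acts through splicing of Xbp1. Several chaperone promoters hold the ER stress response element, searched here as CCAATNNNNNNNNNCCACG on both strands. It was present in the promoter windows (250 bases before to 50 after the start, RefSeq, GRCm38.p6) of 9 of 26 list members with a window, or 34.6%, against 0.137% of 27025 genes. These members were chosen as genes of this response, so that share is not a result of these data. Among tested genes with a window 0.182% held the element, against 1 of 107 genes called higher and 0 of 61 called lower. Of the list members that hold it, only Pdia6 was called. The windows around the element are shown for the called member Pdia6 and for Hspa5, chosen after its values were seen as the best-known target, with the matched element in capitals.
Pdia6 (chr12:17266441-17266559, plus strand): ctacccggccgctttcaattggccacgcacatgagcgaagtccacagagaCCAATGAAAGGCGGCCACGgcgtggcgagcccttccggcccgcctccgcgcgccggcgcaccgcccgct
Hspa5 (chr2:34771975-34772093, plus strand): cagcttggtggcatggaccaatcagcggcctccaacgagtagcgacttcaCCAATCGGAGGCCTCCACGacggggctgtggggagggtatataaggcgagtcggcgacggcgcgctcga
In both windows the match lies on the gene's own strand. A match is a description of the letters and not a measured site.

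Of 32 tested ER stress genes, 5 were called higher and 0 lower (1.00% and 0.655% of all genes), the median log2 change was 1.70, and 12 were higher and 0 lower without overlap (12.2% and 17.5% of all genes). Pdia6, a disulfide isomerase of the ER, was at 46.2, 24.3 and 49.2 CPM in young, 111, 116 and 272 in aged and 1038, 171.9 and 350.5 in aged+Ri libraries. Aged+Ri 1 was far above the other treated libraries, and the log2 change was 3.70 ± 0.64 (edgeR adjusted p = 0.022). Xbp1 itself was at 59.4, 89.2 and 78.9 CPM in young and 1053, 222.6 and 464 in aged+Ri libraries (log2 change 2.94 ± 0.59, edgeR adjusted p = 0.034). Manf, a secreted protein induced by ER stress whose exons overlap Dcaf1 and Rbm15b, was at 2389 CPM in aged+Ri 1, 186 in aged+Ri 2 and 850.5 in aged+Ri 3, against 131.5, 110.5 and 135 in young libraries. Sdf2l1, a partner of the chaperone BiP, was at 213.7, 16.2 and 76.5 CPM against at most 2.84 in young, and Dnajb9, a BiP co-chaperone, at 862, 177 and 289 against 105.5, 102 and 70.6. Hspa5, which encodes BiP, was at 2036, 155.7 and 525 CPM in aged+Ri and 292, 202 and 72.4 in young libraries. Those groups overlapped, and Hspa5 did not pass (edgeR adjusted p = 0.12). In 29 of the 32 genes the highest of the 9 libraries was aged+Ri 1, which was the highest in 12.3% of all genes. The summed level was 22500, 5118 and 9990 CPM in aged+Ri and 5787, 4417 and 4072 in young libraries, so aged+Ri 2 was within the young range. Without aged+Ri 1 the median was 0.86 with 0 calls, without aged+Ri 3 or without young 1 there were 0 calls, without young 2 or aged 2 there was 1, without aged 1 or aged 3 there were 2, without aged+Ri 2 there were 10, with only the 2 groups 0, and within batch 2 the median was 0.92.

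The integrated stress response, in which phosphorylation of eIF2 raises the factor ATF4 and its amino acid genes, showed a smaller median. ATF4 binds a composite element with C/EBP factors, searched here as TGATGNAA on both strands. It was present in the windows of 11 of 31 members of the list, or 35.5%, against 4.51% of 27025 genes. These members were chosen as genes of this response, so that share is not a result of these data. Among tested genes with a window 2.92% held the element, against 3 of 107 genes called higher (2.8%) and 3 of 61 called lower (4.92%). The element is shown for Asns and Nupr1, the members called higher that hold it, with the match in capitals.
Asns (chr6:7693175-7693282, minus strand): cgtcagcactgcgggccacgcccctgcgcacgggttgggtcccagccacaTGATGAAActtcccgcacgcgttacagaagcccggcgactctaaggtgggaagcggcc
Nupr1 (chr7:126625523-126625630, minus strand): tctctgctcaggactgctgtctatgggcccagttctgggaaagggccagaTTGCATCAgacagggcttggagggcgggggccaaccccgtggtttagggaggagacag
In Asns the element lies on the gene's strand, and in Nupr1 on the opposite one, where it reads as its reverse complement.

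Of 36 tested members, 5 were called higher and 0 lower (1.00% and 0.655% of all genes), and the median log2 change was 0.89. Without overlap, 11 were higher and 0 lower, against 12.2% and 17.5% of all genes. Asns, asparagine synthetase, was at 41.7, 13.8 and 50.3 CPM in young, 147, 152 and 140 in aged and 840, 217.7 and 401 in aged+Ri libraries (log2 change 3.78 ± 0.56, edgeR adjusted p = 0.016). The 3 groups did not overlap. Slc3a2, a subunit shared by several amino acid transporters, was at 206, 232 and 214 CPM in young and 1682, 486 and 641 in aged+Ri libraries (log2 change 2.11 ± 0.41, edgeR adjusted p = 0.032). Nupr1, a stress-induced chromatin regulator, was at 1072, 752.5 and 481 CPM in young and 2632, 1952 and 2448 in aged+Ri libraries, where it overlapped the 2358, 2727 and 1459 of aged libraries. Sars, seryl-tRNA synthetase, and Eif4ebp1, an inhibitor of cap-dependent translation, rose by 1.78 ± 0.38 and 1.73 ± 0.36 on the log2 scale (edgeR adjusted p = 0.040 and 0.038). Aged+Ri 1 was the highest library in 21 of the 36 genes. Without it the median was 0.38 with 1 call, and within batch 2 it was 0.39; without aged+Ri 3 there were 0 calls, and without aged 1, aged 2 or young 2 or with only the 2 groups there was 1 in each fit, with 2 without young 1 and 3 without aged 3.

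Other protein-quality lists also had positive medians. Of 37 heat shock and proteostasis genes, 2 were called higher and 0 lower (1.00% and 0.655% of all genes), with a median of 0.57. Without overlap, 10 were higher and 2 lower, against 12.2% and 17.5% of all genes. Ubb, a polyubiquitin gene, was at 2515, 1701 and 2852 CPM in young and 8818, 5893 and 10360 in aged+Ri libraries (log2 change 1.83 ± 0.29, edgeR adjusted p = 0.022). In untreated aged libraries Ubb was at 4696, 6396 and 6927 CPM, above young and overlapping aged+Ri. Dnajb1, a heat-inducible co-chaperone of Hsp70, was at 45.5, 34.3 and 40.2 CPM in young and 165, 84.2 and 143 in aged+Ri libraries (edgeR adjusted p = 0.041). Of 42 proteasome subunits, 0 were called in either direction, with a median of 0.51 and 13 higher and 1 lower without overlap, against the same shares of all genes. Psmc5, an ATPase of the regulatory particle, was at 30.5, 41.1 and 112 CPM in young and 236, 165 and 201 in aged+Ri libraries (edgeR adjusted p = 0.072).

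Targets of NRF2, the transcription factor of the oxidative and electrophile response, held 4 genes called higher and 1 lower of 41 tested (1.00% and 0.655% of all genes). Their median log2 change was 0.56. Without overlap, 14 were higher and 2 lower, against 12.2% and 17.5% of all genes. Nqo1, a quinone reductase and classical target (chromosome 8, 107388225 to 107403206), was at 108, 48.0 and 59.7 CPM in young, 140, 76.4 and 79.3 in aged and 600.2, 800.0 and 947 in aged+Ri libraries. Young and aged cells overlapped and all treated libraries stood above both, with a log2 change against young of 3.45 ± 0.40 (edgeR adjusted p = 0.0032). The ferritin genes, which store iron, were among the most abundant transcripts: Ftl1 was at 7555, 8920 and 24460 CPM in young and 53120, 43790 and 61290 in aged+Ri libraries (log2 change 1.95 ± 0.39, edgeR adjusted p = 0.033). Fth1 went from 5551 ± 2829 to 16990 ± 3575 CPM, a log2 change of 1.61 ± 0.37 (edgeR adjusted p = 0.0496), and Gstp1, a glutathione transferase, by 1.44 ± 0.33 (edgeR adjusted p = 0.0489). Hmox1, haem oxygenase, was at 15.5, 72.0 and 194 CPM in young and 1047, 757 and 659.7 in aged+Ri libraries, without overlap and without passing (edgeR adjusted p = 0.090). Mgst2, a microsomal glutathione transferase, was the member that fell, from 66.5, 44.1 and 188.5 to 4.97, 11.9 and 13.0 CPM (edgeR adjusted p = 0.023). Prdx6, a peroxiredoxin outside the list, was at 211, 379.5 and 382 CPM in young, 577, 606 and 518.5 in aged and 1557, 1370 and 1569 in aged+Ri libraries, 3 levels without overlap (log2 change 2.21 ± 0.29, edgeR adjusted p = 0.0071). With DESeq2 size factors 2 of the 4 higher calls were left, with batch in the model 1, and 1 each without young 1, aged 1, aged 2, aged+Ri 1 or aged+Ri 3 or with only the 2 groups, while there were 2 without aged+Ri 2 and 7 without young 3. Mgst2 lost its call without any 1 of the aged+Ri libraries.

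Glycolysis held 2 called genes of 22, both higher, with a median of 0.69. For this list and those that follow here, the shares over all genes were 1.00% called higher and 0.655% lower. Eno1, enolase, was at 56.1, 45.5 and 63.0 CPM in young and 260.4, 188 and 206 in aged+Ri libraries (log2 change 1.99 ± 0.36, edgeR adjusted p = 0.023), and Aldoa, aldolase, rose by 1.29 ± 0.26 to 758 ± 60.2 CPM (edgeR adjusted p = 0.034). Of 38 immediate early genes, 2 were called higher and 0 lower, Klf4 and its relative Klf6, which rose from 95.9, 137 and 116 to 398, 307 and 332 CPM with aged libraries at 115, 112 and 128.5 (log2 change 1.57 ± 0.29, edgeR adjusted p = 0.023). Fos and Jun, named after their values were seen, were under 10 CPM in every library. Of 55 interferon-response genes, 2 were called higher, Ifit1 and Ifit3, 0 lower, and the median was -0.02. Ifit1 was at 44.1, 9.73 and 20.2 CPM in aged+Ri and at most 0.347 in young libraries (edgeR adjusted p = 0.022). Of 28 targets of p53, Ddb2, a sensor of ultraviolet damage whose exons overlap Acp2, was the 1 called higher, at 11.5, 8.32 and 13.0 against at most 0.122 CPM (edgeR adjusted p = 0.039), and the list's median was 0.23, or 2.28 against young 1 alone. Ddb2 passed the filter through aged+Ri libraries alone, and with 10 counts required in both groups the list held 0 calls of 26 and the interferon list 1 of 53. The heat shock, glycolysis, immediate early and interferon lists each held 0 calls without aged+Ri 1 and without aged+Ri 3, and the glycolysis and immediate early lists also without young 1. Of 17 BCL2 family genes, Bad, which promotes apoptosis, was the 1 called higher, from 25.1 ± 2.20 to 81.5 ± 22.1 CPM (edgeR adjusted p = 0.042), with a list median of -0.97. That median was 0.01 within batch 2, 0.08 with the stricter filter and between -1.34 and -0.46 over the fits that leave out 1 library.

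Hk3, Rag2, Cd33 and Mcemp1 were among the genes with the largest falls, and all 4 passed the filter through young libraries alone, so they had to differ. Hk3, the hexokinase of myeloid cells (chromosome 13, 55005985 to 55021385, with exons that overlap Unc5a), was at 0.49, 20.8 and 18.9 CPM in young and 10.6, 6.30 and 12.1 in aged libraries. The aged+Ri group held 1 count in all, so that young exceeded aged+Ri by a ratio of 1589 (95% counting limits 284.8 to 62810, edgeR adjusted p = 0.022). Rag2, a subunit of the recombinase of lymphocyte receptors, was at 9.79, 8.20 and 71.9 CPM in young libraries and had 1 count over the aged+Ri libraries, a ratio of 3647 (654.1 to 144100, edgeR adjusted p = 0.041). Among untreated aged libraries it was at 0, 16.5 and 14.7 CPM. Cd33, a lectin of myeloid progenitors, was at 25.3, 0.44 and 28.6 CPM in young libraries and had 2 counts in the aged+Ri group, a ratio of 1244 (343.9 to 10280, edgeR adjusted p = 0.033). Within batch 2 the log2 change of Cd33 was -0.85, against -10.01 over all libraries. Cd33 and Hk3 were both under 1 CPM in 1 young library, not the same one. Mcemp1, a mast cell and myeloid membrane protein, had 1 count in the aged+Ri group and was at 13.8, 8.06 and 99.9 CPM in young libraries (edgeR adjusted p = 0.049).

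**Figure D3:**
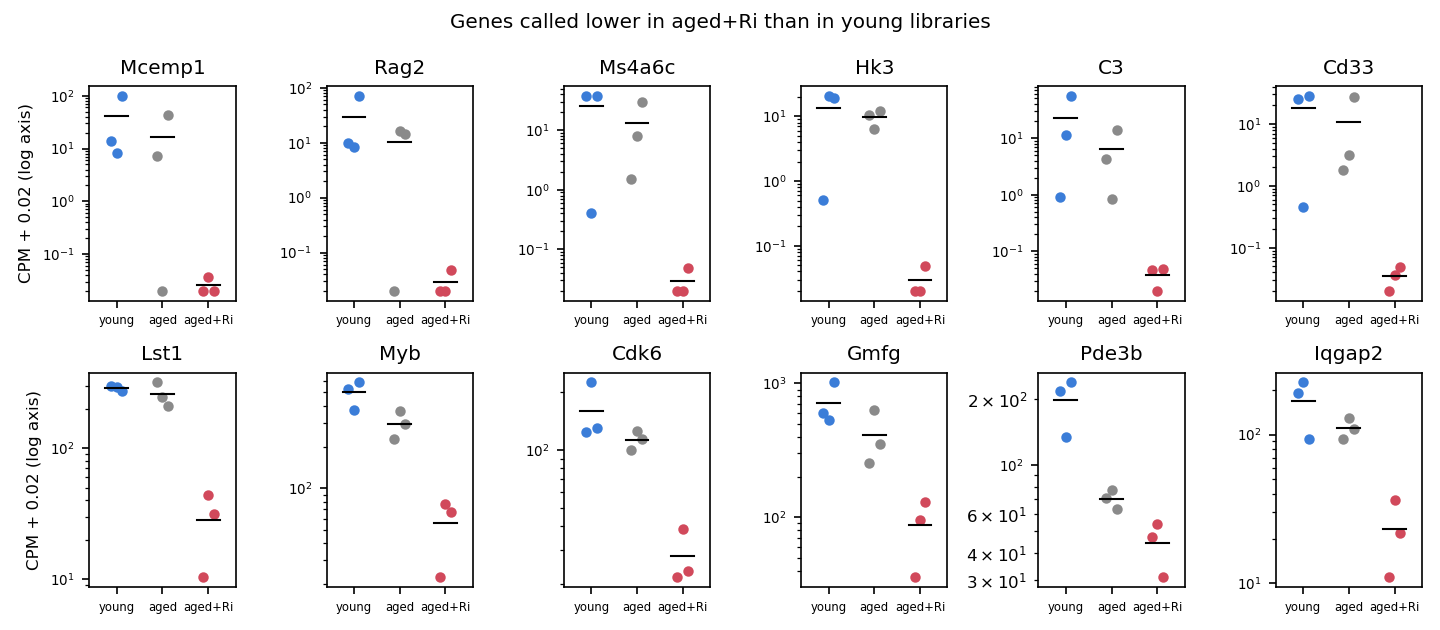
CPM + 0.02 (log axes, a scale for each gene) in each library of the young, aged and aged+Ri groups, replicates 1 to 3 from left to right, for 12 genes called lower in aged+Ri; black lines are group means. In the upper row aged+Ri libraries lie on the floor and young or aged libraries scatter widely, while in the lower row Lst1 is close together in young libraries and below 45 CPM in all aged+Ri ones.

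Myeloid markers had the lowest median of all lists with at least 5 tested members. Of 43 markers, 36 passed the filter on low counts, 2 of them, Hk3 and Cd33, through the young libraries alone. Among the 36, 0 were called higher and 5 lower (1.00% and 0.655% of all genes), and the median log2 change was -3.33. Without overlap, 22 were lower and 1 higher (17.5% and 12.2% of all genes). Lst1, a leukocyte adaptor gene in the major histocompatibility region (chromosome 17, 35185095 to 35188439), was at 300.3, 294.6 and 274.7 CPM in young, 319, 247 and 211 in aged and 10.3, 43.6 and 31.4 in aged+Ri libraries. Untreated cells of both ages overlapped and every treated library was far lower, with a log2 change against young of -3.35 ± 0.47 (edgeR adjusted p = 0.012). Plac8, a cysteine-rich protein of myeloid and lymphoid progenitors, was at 846, 766.5 and 2081 CPM in young, 73.6, 589 and 629 in aged and 20.5, 63.3 and 73.1 in aged+Ri libraries (log2 change -4.56 ± 0.80, edgeR adjusted p = 0.023). Ly6c2, part of the Ly6C antigen of monocytes, was at 73.8, 71.0 and 124 CPM in young and 4.99, 5.41 and 2.05 in aged+Ri libraries (log2 change -4.43 ± 0.92, edgeR adjusted p = 0.0395). The summed level of the markers was 3228, 3432 and 8026 CPM in young, 1550, 2131 and 13060 in aged and 464, 541 and 618 in aged+Ri libraries, so treated libraries were the lowest of all 9. Elane and Mpo, granule enzymes of neutrophil precursors, were not called and are named in addition to the called members. They had 8647 to 34241 and 3142 to 5104 counts in young and at most 241 and 264 in aged+Ri libraries. Other markers differed less or went the other way, and 33 members had a negative and 3 a positive log2 change. Prtn3 had 2494, 2587 and 6760 counts in young and 1040, 2289 and 1351 in aged+Ri libraries. Spi1 was higher, with 2656, 3674 and 4801 counts in young and 7550, 9984 and 6136 in aged+Ri libraries. In bulk samples, fewer cells of a type and less RNA per cell cannot be told apart. The median of the myeloid list was between -4.10 and -3.16 over the fits that leave out 1 library, -2.73 within batch 2 and -2.44 against young 1 alone. Without aged+Ri 3 it held 0 calls, without aged+Ri 2 it held 1, without aged+Ri 1 or young 1 it held 2, and without aged 3 it held 8. With 10 counts required in both groups, which leaves out Hk3 and Cd33, 3 of 34 were called lower and the median was -3.31.

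Lymphoid progenitor markers had a negative median with a wide spread. Of 24 tested members, 2 passed the filter through young libraries alone, 1 was called higher and 2 lower (1.00% and 0.655% of all genes), and the median was -2.95. Ikzf1, the transcription factor Ikaros, fell from 152.5, 99.9 and 155 to 26.4, 39.5 and 46.5 CPM, with aged libraries at 70.2, 89.7 and 46.0 (log2 change -1.86 ± 0.39, edgeR adjusted p = 0.039). Il2rg, the common chain of interleukin receptors, rose from 45.2, 20.8 and 17.2 to 338, 80.4 and 310.5 CPM (log2 change 3.13 ± 0.58, edgeR adjusted p = 0.025). The summed level was 1158, 727 and 5545 CPM in young and 601, 407 and 908 in aged+Ri libraries, an overlap of the groups in which young 3 was highest. Within batch 2 the median was -0.39, and without young 3 it was -1.77. The list held 0 calls without aged+Ri 1 and without aged+Ri 3, 0 lower calls also without young 1, aged 2 or aged+Ri 2, and 0 higher calls without young 2. With 10 counts required in both groups, 1 of 22 was called lower. Among markers of mature T, NK and B cells 0 of 9 tested were called, and their summed level was 13630, 229 and 430 CPM in young and 141, 54.5 and 98.0 in aged+Ri libraries, without overlap. Within that sum, the immunoglobulin gene Iglc2 alone was at 13490, 150.4 and 162.5 CPM in young and 121.7, 30.4 and 10.9 in aged+Ri libraries. Of the 9 markers, 2 were lower and 0 higher without overlap (17.5% and 12.2% of all genes). The median of these markers was -2.37 over all libraries and 0.75 within batch 2. Erythroid (0 called of 15, median -1.63), stromal and endothelial (0 of 14, -2.06), macrophage and dendritic (0 of 12, -0.63), and mast cell and basophil markers (0 of 5, -0.54) held no call. Within batch 2 these medians were -0.42, -0.09, -0.10 and 0.24, and the mast cell median was 2.27 against young 1 alone. Hba-a1, an alpha-globin gene named after its values were seen, went the other way from the erythroid median, with 12710, 704 and 81 counts in young and 22098, 24775 and 31860 in aged+Ri libraries (edgeR adjusted p = 0.31). Siglech, a plasmacytoid dendritic cell marker, was at 19.8, 5.50 and 12.8 CPM in young libraries and at 0 in all 3 aged+Ri libraries, at least 591-fold lower at 3 counts over the group (edgeR adjusted p = 0.051). Of 17 megakaryocyte markers, 1 was called higher, Cd9, and the median was -0.62.

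Myb, Cdk6, Gmfg and Iqgap2 were among the genes called lower with at least 5 CPM in both groups. Myb, a transcription factor that drives progenitor proliferation (chromosome 10, 21124935 to 21160984), was at 531, 373 and 591 CPM in young, 228, 365 and 294 in aged and 22.4, 76.4 and 67.2 in aged+Ri libraries. Its 3 groups stood in descending steps without overlap, and the log2 change from young to aged+Ri was -3.17 ± 0.44 (edgeR adjusted p = 0.012). Cdk6, the kinase that releases HSCs from quiescence, was at 124, 224.9 and 129.8 CPM in young, 99.3, 126 and 113 in aged and 21.6, 38.7 and 23.2 in aged+Ri libraries (log2 change -2.52 ± 0.38, edgeR adjusted p = 0.018). Gmfg, a regulator of actin branching in blood cells, was at 602, 533 and 1020 CPM in young and 35.5, 95.7 and 130.3 in aged+Ri libraries (log2 change -3.04 ± 0.50, edgeR adjusted p = 0.022). Iqgap2, a scaffold that binds Rac and Cdc42, went from 170 ± 68.1 to 23.1 ± 12.8 CPM, a log2 change of -2.88 ± 0.48 (edgeR adjusted p = 0.022). Pde3b, a phosphodiesterase, and Pan3, a subunit of a deadenylase, fell by 2.16 ± 0.36 and 1.84 ± 0.32 (edgeR adjusted p = 0.022 for both). Pan3 was at 185, 182 and 182 CPM in young, 57.1, 68.9 and 55.8 in aged and 37.5, 61.9 and 53.4 in aged+Ri libraries, where the aged groups overlapped. Lgals1, the lectin galectin-1, and Celf2, an RNA-binding protein, fell by 3.26 ± 0.56 and 1.95 ± 0.36 (edgeR adjusted p = 0.022 and 0.023). Cd44, a hyaluronan receptor, fell from 115, 105 and 111 to 23.6, 39.2 and 28.3 CPM (edgeR adjusted p = 0.028) and was the 1 call among 21 adhesion and homing genes.

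Of 31 HSC transcription factors, 1 was called lower and 0 higher (0.655% and 1.00% of all genes), with a median of -0.78. Msi2, an RNA-binding protein listed with them, was at 110.2, 126.5 and 124.5 CPM in young, 81.6, 59.9 and 64.2 in aged and 34.8, 53.4 and 25.9 in aged+Ri libraries (log2 change -1.66 ± 0.37, edgeR adjusted p = 0.044). Of 26 genes of HSC surface and quiescence, Procr, which encodes the stem-cell marker EPCR, was the 1 call and was higher, at 402, 172 and 219 CPM in aged+Ri and 64.4, 104 and 47.2 in young libraries (log2 change 1.88 ± 0.43, edgeR adjusted p = 0.049). The list's median was -0.78, the opposite direction. Procr and Msi2 kept their calls in 2 and 1 of the 9 fits that leave out 1 library. Kit, the receptor for stem cell factor, had a log2 value of -1.53 without passing (edgeR adjusted p = 0.094).

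All 13 mitochondrially encoded messenger RNAs were lower in aged+Ri than in every young library, against 17.5% of all genes, and 5 of them were called lower (0.655% of all genes). These genes encode core subunits of the respiratory chain and ATP synthase, and their share of counts is also used as a measure of RNA and cell quality. That share was 4.68%, 4.14% and 4.48% in young, 2.72%, 3.54% and 2.57% in aged and 1.57%, 2.56% and 1.88% in aged+Ri libraries. Young libraries were above all aged ones, and treated and untreated aged libraries nearly met, with p = 0.1 for young against aged+Ri by a two-sided exact permutation test, the smallest p possible (adjusted p = 0.1). mt-Nd1, a complex I subunit, was at 2554, 1856 and 2570 CPM in young and 380.4, 915 and 617 in aged+Ri libraries (log2 change -1.87 ± 0.33, edgeR adjusted p = 0.022). mt-Nd2, mt-Nd4, mt-Co2 and mt-Co3 fell by 1.90, 1.55, 1.27 and 1.30 on the log2 scale (edgeR adjusted p between 0.028 for mt-Nd2 and 0.039 for mt-Co3). The list's median was -1.30 and ranged from -1.52 to -1.14 over the fits that leave out 1 library. Without young 1, aged+Ri 1 or aged+Ri 3 it held 0 calls, without aged 1 it held 2 and without young 3 it held 3, and in the model of only the 2 groups 0, against 2 with batch in the model. Of 77 nuclear genes of oxidative phosphorylation, Atp5b, the catalytic subunit of ATP synthase, was called higher and Ndufb5, of complex I, lower (edgeR adjusted p = 0.0489 and 0.0487), with a median of -0.38. Cytosolic ribosomal protein genes held 0 calls of 79 in either direction and a median of -0.51, and 52 of them were lower without overlap, against 17.5% of all genes. With batch in the model 11 were called lower, and with DESeq2 10. Rps15a was at 1653, 1605 and 1248 CPM in young and 601, 578.5 and 605.5 in aged+Ri libraries (edgeR adjusted p = 0.051).

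Rhoa itself (chromosome 9, 108306129 to 108337934) was at 87.9, 150.3 and 190.2 CPM in young, 181 CPM on average in aged and 428, 248 and 363 in aged+Ri libraries. All treated libraries were above all young ones, with a log2 value of 1.28 ± 0.34 (edgeR adjusted p = 0.077). Rhoc, its close relative, was at 6.28, 3.03 and 0.112 CPM in young and 51.8, 30.1 and 42.4 in aged+Ri libraries (3.72 ± 1.00, edgeR adjusted p = 0.077). Cdc42, a related GTPase studied in HSC ageing, was at 677, 590 and 791 CPM in young and 1044, 856 and 1308 in aged+Ri libraries (edgeR adjusted p = 0.19). These 3 genes were named by a fixed rule and do not stand for the pathway as a whole. The list that holds Rhoa and Rhoc had 38 tested genes, 0 calls and a median log2 change of -0.38. Without overlap, 6 of its genes were higher and 6 lower, against 12.2% and 17.5% of all genes. There was no call among 30 actomyosin effectors (0 called, median -0.07), 16 targets of SRF and MRTF (0 called, 0.05) or 16 nuclear envelope genes (0 called, -0.42). Cfl1, the actin-severing protein cofilin, was at 95.3, 80.2 and 257 CPM in young and 542, 401 and 480 in aged+Ri libraries (edgeR adjusted p = 0.071), and Myh9, non-muscle myosin, at 102, 124 and 84.8 against 43.2, 52.4 and 34.9 (edgeR adjusted p = 0.083). Actb, beta-actin, was at 639, 784 and 575 CPM in young and 351, 408 and 464 in aged+Ri libraries (edgeR adjusted p = 0.14). Lmna, which encodes the lamins A and C, was low and overlapped, at 3.71, 6.60 and 17.3 against 9.16, 4.37 and 7.38 CPM (edgeR adjusted p = 0.88). Among 25 heterochromatin genes the 1 call was Cbx3, the heterochromatin protein HP1 gamma, which fell from 123, 104 and 108 to 23.0, 40.3 and 45.9 CPM (log2 change -1.62 ± 0.37, edgeR adjusted p = 0.049) and kept its call in 1 of the 9 fits that leave out 1 library. Polycomb genes held 0 calls of 28.

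**Figure D4:**
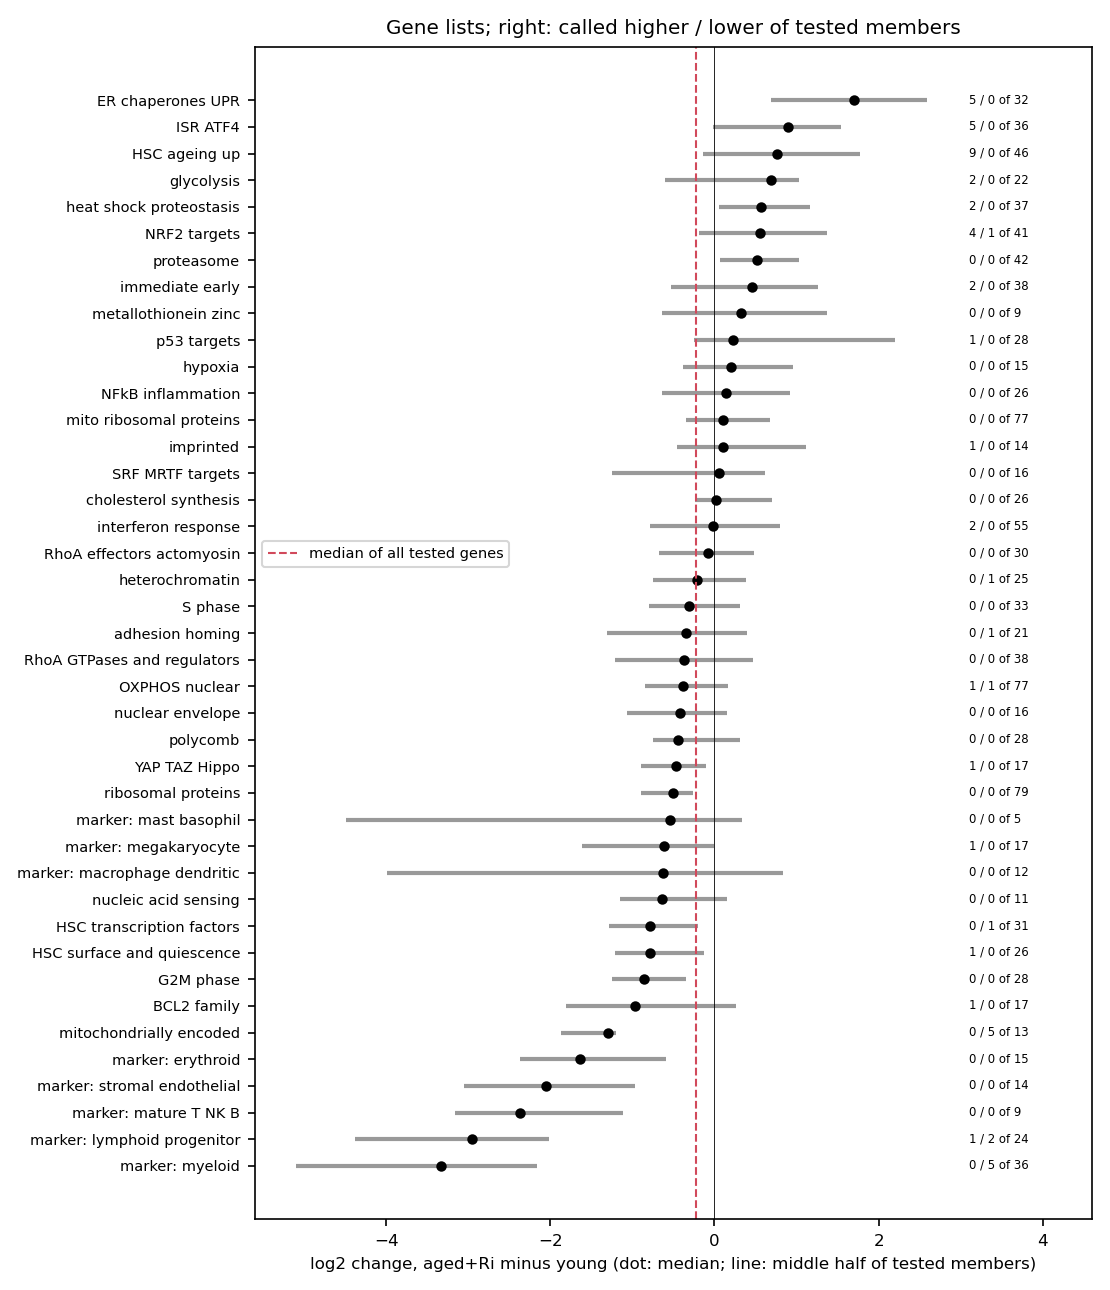
Median log2 change (dots) and the range between the quartiles of tested members (lines) for each gene list with at least 5 tested members, aged+Ri minus young, with the number called higher and lower at the right and the median of all tested genes (-0.23) as a dashed line. ER stress genes have the highest median (1.70) and myeloid markers the lowest (-3.33), and most lists hold 0 to 2 calls.

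Cell-cycle lists held 0 calls, with medians of -0.31 over 33 genes of S phase and -0.86 over 28 of G2 and M phase, and these medians were 0.11 and 0.05 within batch 2. Lists without a call were also hypoxia (15 tested, median 0.21), cholesterol synthesis (26, 0.02), NF-kB and inflammation (26, 0.15), nucleic acid sensing (11, -0.64), zinc and metallothionein genes (9, 0.33) and mitochondrial ribosomal proteins (77, 0.11). Against young 1 alone the median was 1.08 for the inflammation list, 1.06 for metallothionein genes and 1.06 for immediate early genes. Imprinted genes had Snrpn as their 1 call of 14, and 0 of 12 with 10 counts required in both groups, and Hippo pathway genes had Wwtr1 as their 1 call of 17.

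The libraries of the treated group were not alike in these lists. Relative to the young mean, the median of log2(CPM + 0.5) over ER stress genes was 2.67, 0.39 and 1.41 in aged+Ri 1, 2 and 3, and over targets of NRF2 it was 0.39, 1.11 and 0.75, so aged+Ri 1 was highest in the first and lowest in the second. Myeloid markers were at -3.37, -2.75 and -2.73, a narrow range below all other libraries. Genes reported higher in aged HSCs were at 0.98, 1.47 and 1.80 with the inhibitor and at 1.58, 1.59 and 1.76 without it, which overlap.

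**Figure D5:**
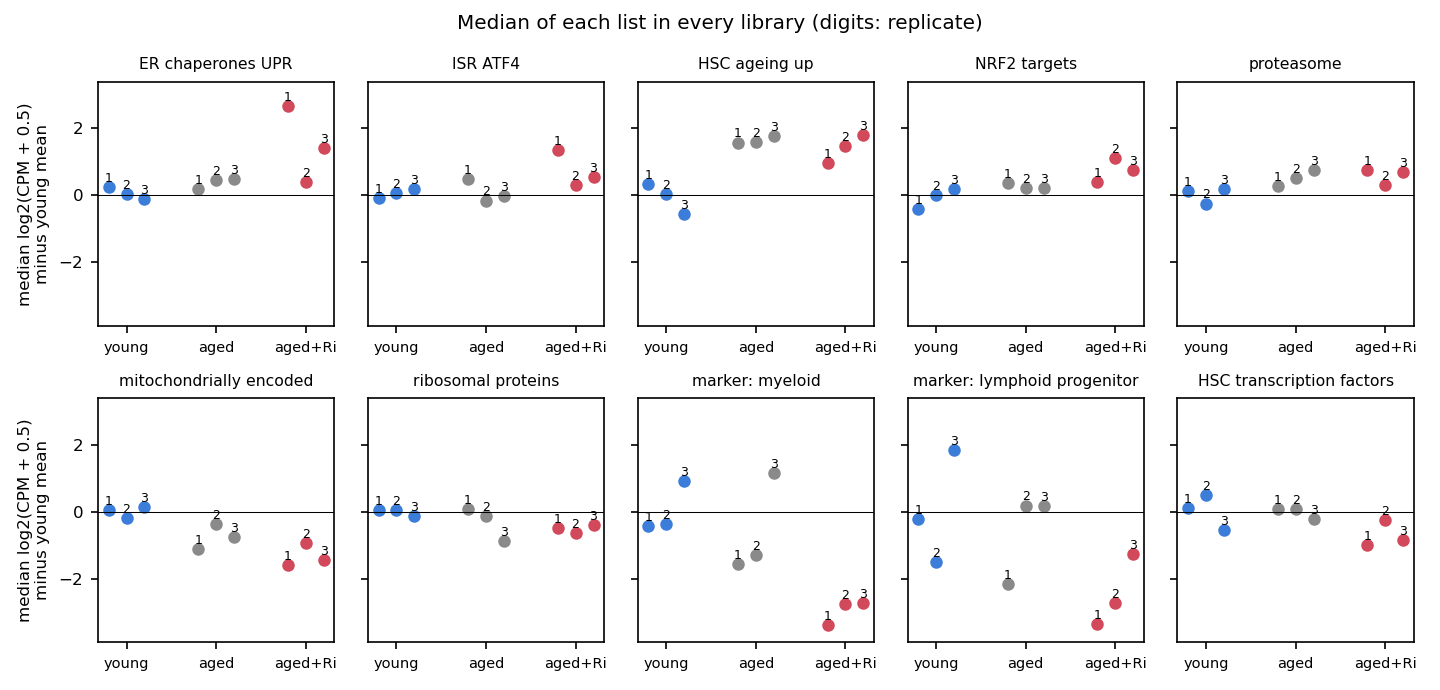
Median over tested members of log2(CPM + 0.5) minus the mean of the young libraries (y axis), for 10 gene lists in each of the 9 libraries, grouped as young, aged and aged+Ri, with the replicate number at each point. ER stress genes reach 2.67 in aged+Ri 1 and 0.39 in aged+Ri 2, and myeloid markers are between -3.37 and -2.73 in all aged+Ri libraries.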

How the data were processed

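RNA from 9 libraries (3 groups of 3) was analysed from the deposited table of estimated counts per gene, of which between 73.06% and 82.12% per library were whole within 0.005. Per the submitters' processing notes, the tools named are STAR 2.7.0, cutadapt 1.18, featureCounts, SAMtools 1.14 and R 4.2.0, and the build is GRCm38. Strandedness of the counting is not given in the sources used here, so overlapping genes are uncertain. Per the labels' protocols, SMART-Seq v4 gave the cDNA and Nextera XT the libraries.

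Estimated counts were rounded, and genes with at least 10 counts in 3 of the 6 compared libraries were kept. edgeR 4.0.16 (R 4.3.3; TMM, robust quasi-likelihood fit, legacy method, 6 residual degrees of freedom) modelled the means of all 3 groups, and aged+Ri minus young was tested, two-sided, with Benjamini-Hochberg adjustment over 13902 genes at 0.05. A standard error is the log2 change over the square root of F. Levels are TMM-scaled CPM. With 0 to 3 counts in a group, ratios of totals carry exact Poisson 95% intervals, or a bound at 3 counts over the group, which cover counting error only. Coordinates are from GENCODE M21 (GRCm38), in which 13702 tested symbols matched. The pipeline was tested on simulated data. In these data only genes with a mean of at least 5 CPM were changed, and only in aged+Ri, with young and aged at the same mean. The pipeline called 0 of 50 genes changed by 1 on the log2 scale, 12 of 50 changed by 2, 27 of 50 by 3 and 44 of 50 by 5. Recovery of genes below that level was not tested. A list without a call may therefore hold smaller changes that were missed.

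The comparison, the 42 gene lists and the members were chosen with earlier results of these data known. Named genes were called genes that are not predicted genes, with no overlap between the libraries of the groups and 5 CPM in the higher one: up to 12 per direction by size, up to 12 by p with 5 CPM in both groups, up to 5 per list by p whether called or not, and a fixed set of single genes. Alternatives were other scaling, DESeq2 1.42.0, limma-voom (limma 3.58.1), other filters, only the 2 groups, a replicate block, batch, each library left out, young 1 alone and edgeR's newer method. Replicate numbers did not meet the rule for pairing, and no 2 libraries agreed within sampling noise.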

Additional observations from a re-analysis of the deposited data

How the results depend on the processing

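Of 230 genes called (139 higher, 91 lower), DESeq2 size factors called 209, of which 206 were shared, edgeR's own filter 219 and a filter for 10 counts in both groups, added after seeing the data, 178. Counts moved further with DESeq2 and its own filter, which changes the tool and the genes tested together (21640 genes; 2944 called, 830 higher, 2114 lower), limma-voom (409; 209 lower), no filter (218 higher of 291), the stricter filter (137 lower of 294), only the 2 groups (54; 24 higher, 30 lower), batch as covariate (150; 57 lower), young 1 alone (607; 447 higher, 160 lower) and the newer quasi-likelihood method (585; 299 higher, 286 lower); the cause was not tested. The share of calls that were higher was 60.43% in the reported fit, 28.19% with DESeq2, 48.9% with limma-voom, 74.91% without a filter, 44.44% with only the 2 groups, 73.64% against young 1 alone and 51.11% with the newer method. Leaving out 1 library gave 8 to 549 called, 7 to 380 higher and 1 to 169 lower. Replicate numbers paired libraries with correlations of -0.01, 0.10 and 0.12, which does not show a pairing; with the replicate block 152 genes were called, 52 of them lower, and 119 were shared. The difference in genes detected (aged+Ri minus young) was -4935, or -2525 at a minimum of 10 counts, and differences without 1 library from -5272 to -4627; for the mitochondrial share they were -2.70 to -2.21 and for the predicted-gene share -3.50 to -1.96 percentage points. No gene called in the reported fit changed direction among those named, under the alternatives run. In these genes the libraries of the groups did not overlap, so leaving libraries out could hardly change it. The depth limits low genes: 3 counts correspond to 0.039 to 0.085 CPM.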
